A study of Mus musculus with 4 samples.

Results

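The astrocyte marker genes are 10 genes that are widely used to recognise astrocytes or their precursors, taken as the rows of the deposited tables whose gene column equals *Gfap*, *Aqp4*, *Aldh1l1*, *Mfge8*, *Slco1c1*, *Slc1a2*, *Aldoc*, *Gja1*, *S100b* or *Clu*. All 10 were found among the 21091 entries of each table. They were measured by RNA-seq of total RNA in 4 libraries of C57BL/6 mouse neural progenitors, isolated from brains at embryonic day 11 (E11) or 14 (E14) and grown for 3 days in suspension as neurospheres with EGF and FGF. At each stage, 1 library came from control cells (CTL) and 1 from cells with a conditional knockout of *Stat3* (*Stat3* cKO), in which Cre recombinase driven by the rat Nestin promoter and enhancer removes floxed exons that encode the SH2 domain of STAT3. The sample labels and the sequencing methods of the study call the control wild-type, whereas its animal methods describe controls with Nestin-Cre and 1 floxed *Stat3* allele, so whether the CTL cells carried Cre is unclear, and a ratio of genotypes may also be a difference in Cre. Whether embryos were pooled is not given in the sources used here. There were no replicates in any group, so differences could not be weighed against replicate error and no test between groups was made. In bulk RNA of this kind, fewer cells of a type and less RNA per cell cannot be told apart.

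Astrocytes arise late from the same radial glia that first make neurons, and several of their genes are already read in radial glia before any astrocyte is present. Others, *Gfap* above all, are read mainly once an astrocyte matures. STAT3 is activated by cytokines of the LIF and CNTF family through JAK kinases, enters the nucleus and is known to bind the *Gfap* promoter during astrocyte differentiation.

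*Stat3*, the targeted gene, had 7.41 (CTL) and 6.74 FPKM (*Stat3* cKO) at E11, and 27.6 and 9.55 FPKM at E14 (fragments per kilobase of transcript, corrected for library depth). The genotype ratio (*Stat3* cKO divided by CTL) was 0.346 at E14 and 0.911 at E11, so *Stat3* itself set the E14 libraries apart but hardly the E11 ones. The Y-linked gene *Ddx3y* was at 0 in both libraries of E11. At E14 it had 0.0569 FPKM in CTL and 25.1 FPKM in *Stat3* cKO, so the E14 libraries also differed in their share of male cells. Genotype and sex cannot be told apart at E14, and the part of sex in the E14 ratios was not tested. Radial glia markers summed to between 1626 and 8178 FPKM and all 10 exceeded 10 FPKM in every library. Ratios below are plain ratios of deposited FPKM, and counts are of genes that differed at least 2-fold and averaged 1 FPKM or more across libraries (12449 entries and 9 of the 10 markers, all but *Gfap*).

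At E14, the astrocyte markers separated into 3 kinds. *S100b*, *Aqp4* and *Mfge8* were more than 2-fold higher in *Stat3* cKO than in CTL and *Aldh1l1* was 1.74 times CTL, whereas *Gfap* was 4.84-fold lower and *Slco1c1* was 0.632 times CTL. The other 4 markers lay between 1.15 and 1.22 times CTL. At E11 every marker but *Slco1c1* and *Gfap* lay between 0.793 and 1.56 times CTL.

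**Figure D1:**
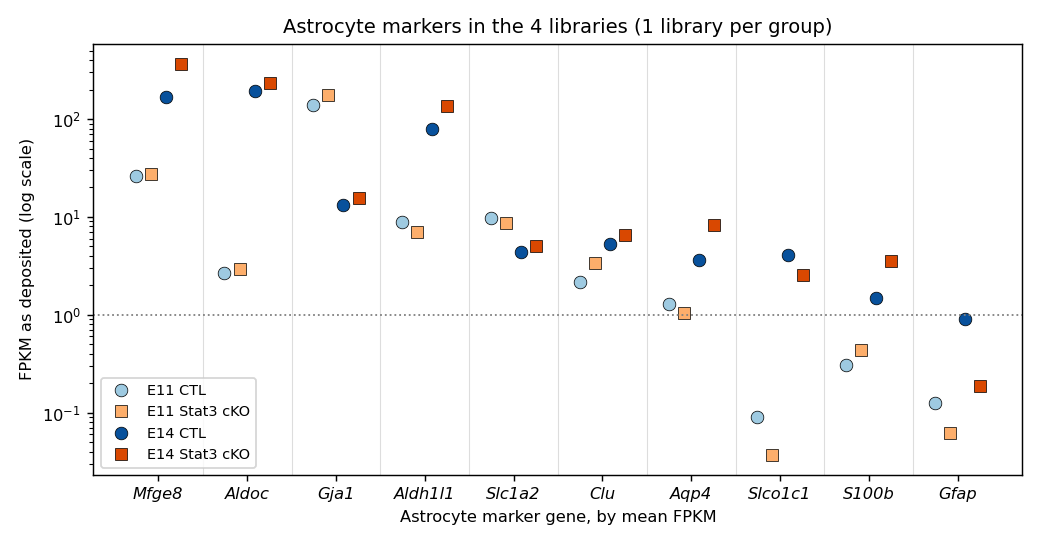
Deposited FPKM (log scale) of the 10 astrocyte markers in the 4 libraries, 1 point per library, ordered by mean FPKM, with a dotted line at 1 FPKM. *Gfap* lies below 1 FPKM in all 4 libraries, and *Gja1* and *Slc1a2* are the markers with both E11 points above both E14 points.

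*Gfap* encodes the glial fibrillary acidic protein, the intermediate filament of astrocytes, and is listed on chromosome 11 from 102748649 to 102758514. It had 0.124 (CTL) and 0.0625 FPKM (*Stat3* cKO) at E11, and 0.901 and 0.186 FPKM at E14. These are the values of a gene barely read in any library. From the spacing of low FPKM values, which gives a rough estimate of what 1 fragment is worth, they correspond to about 16, 6, 97 and 23 fragments. The genotype ratio was 0.207 at E14, with an approximate 95% counting interval (exact Clopper-Pearson) of 0.128 to 0.336, and its log2 value of -2.27 became -0.68 with a pseudocount of 1. At E11 the ratio was 0.503, with an interval of 0.159 to 1.33, so a difference was not detectable at this depth. These intervals cover counting error only and say nothing of the spread between cultures.

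The position of *Gfap* among the other markers of the same library does not depend on how libraries are scaled. *Gfap* stood at 6.56% of the geometric mean of the other 9 markers in E14 CTL and reached 0.941% in E14 *Stat3* cKO, beside 3.62% and 1.88% in the E11 pair. Against *Aldh1l1* alone it was 1.15% (CTL) and 0.136% (*Stat3* cKO) at E14, an 8.40-fold gap, while the gap at E11 was 1.58-fold. Of the genes that averaged 1 FPKM or more, the share with a lower value than *Gfap* was 5.44% (CTL) and 1.20% (*Stat3* cKO) at E14. From E11 to E14 *Gfap* was 7.26-fold higher in CTL and 2.98-fold higher in *Stat3* cKO, and these log2 ratios of 2.86 and 1.58 became 0.76 and 0.16 with a pseudocount of 1.

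Because STAT3 is known to bind DNA at TTCNNNGAA, with TTCCNGGAA as the classical form, the promoter windows of the markers were read for both motifs. Each window runs from 250 bases before to 50 after an annotated start in RefSeq (build GRCm38.p6). *Aqp4* and *Clu* had no window, and the other 8 markers had 9. A match was found in 2 of these, the window of *Gfap* and 1 of the 2 of *Aldoc*, and both windows held both motifs. Of all 32851 mouse windows, 1.15% held TTCCNGGAA and 8.30% held TTCNNNGAA. Both motifs read the same on either strand, and every TTCCNGGAA is also a TTCNNNGAA. The windows are shown because they are those of the markers that hold a match, and they belong to genes with unlike genotype ratios at E14 (0.207 for *Gfap* and 1.22 for *Aldoc*). They are printed 5′ to 3′ along the gene up to the start, or to the end of the match that crosses it, with the matches in capitals. The *Gfap* stretch is chr11:102897194-102897450 on the minus strand, and its match takes positions 249 to 257 of the window. The *Aldoc* stretch is chr11:78323948-78324197 on the plus strand, with TTCAGTGAA at 127 to 135 and TTCCAGGAA at 168 to 176.
Gfap: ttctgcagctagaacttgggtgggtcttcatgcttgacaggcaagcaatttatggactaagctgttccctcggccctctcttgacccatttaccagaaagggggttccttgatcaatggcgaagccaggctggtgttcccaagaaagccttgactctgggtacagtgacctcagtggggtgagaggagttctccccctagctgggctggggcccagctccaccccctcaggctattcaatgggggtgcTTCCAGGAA
Aldoc: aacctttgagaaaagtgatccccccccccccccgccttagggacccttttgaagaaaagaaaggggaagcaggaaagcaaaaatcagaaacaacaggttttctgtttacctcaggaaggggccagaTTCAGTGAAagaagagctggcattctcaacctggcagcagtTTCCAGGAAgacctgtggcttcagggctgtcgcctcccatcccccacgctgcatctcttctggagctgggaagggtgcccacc
A match is a description of these letters and not a measured binding site, and sites outside the windows were not read. The study lists *Gfap* primers for measuring STAT3 binding, and some of these lie upstream of the window.

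*Aldh1l1*, *Mfge8*, *Aqp4* and *S100b* were higher at E14 than at E11 in both genotypes and, at E14, had the 4 highest genotype ratios of the markers. *Aldh1l1*, an enzyme of folate metabolism read in nearly all astrocytes (chromosome 6, 90500841 to 90549165), had 8.90 (CTL) and 7.06 FPKM (*Stat3* cKO) at E11, and 78.6 and 136 FPKM at E14. *Mfge8*, a secreted bridge protein for the uptake of dying cells (chromosome 7, 86278653 to 86293946), had 26.0, 27.7, 169 and 370 FPKM in the same order. For both, the step between stages exceeded that between genotypes. The E14 *Stat3* cKO library held the highest value of each, above 94.7% and 97.8% of genes. *Aqp4*, the water channel of astrocyte endfeet (chromosome 18, 15547902 to 15562193), had 1.29, 1.04, 3.63 and 8.32 FPKM. *S100b*, a calcium-binding protein (chromosome 10, 75716580 to 75724064), had 0.306, 0.436, 1.495 and 3.54 FPKM. *S100b* is also read in cells of the oligodendrocyte lineage, and *Aqp4* in ependymal cells.

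In E14 *Stat3* cKO relative to E14 CTL, the ratio was 2.37 for *S100b* (counting interval 1.85 to 3.04), 2.29 for *Aqp4* (2.11 to 2.497), 2.19 for *Mfge8* (2.15 to 2.23) and 1.74 for *Aldh1l1* (1.70 to 1.77). At E11 the same ratios were 1.43 (0.773 to 2.69), 0.805 (0.668 to 0.964), 1.06 (1.01 to 1.12) and 0.793 (0.735 to 0.856). *Aqp4* and *Aldh1l1* were thus lower in *Stat3* cKO at E11 and higher at E14. From E11 to E14, *Aldh1l1* was 8.83-fold higher in CTL and 19.3-fold higher in *Stat3* cKO, and *Mfge8* was 6.47-fold and 13.3-fold higher.

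*Slco1c1* encodes a thyroid hormone transporter of astrocytes and of brain endothelium and choroid plexus (chromosome 6, 141472906 to 141518698). It had 0.0907 (CTL) and 0.0367 FPKM (*Stat3* cKO) at E11, and 4.04 and 2.56 FPKM at E14. It was nearly silent at E11, with about 14 and 4 fragments, and clearly read at E14, with about 525 and 372. The E14 level was 44.6 times the E11 level in CTL and 69.7 times in *Stat3* cKO, but the order of these steps turned with a pseudocount, with log2 ratios of 4.44 and 4.28 at a pseudocount of 0.1 and of 2.21 and 1.78 at 1. The genotype ratio was 0.632 at E14 (0.552 to 0.723) and 0.404 at E11 (0.0904 to 1.20). The 7 endothelial markers together had 5.42, 5.38, 1.24 and 1.85 FPKM over the 4 libraries, while 1 of them, *Cldn5*, had 0.511, 0.567, 0.551 and 1.04 FPKM. The choroid plexus marker *Ttr* had 0.263, 0.282, 118 and 82.2 FPKM, lower in *Stat3* cKO at E14 as *Slco1c1* was. *Ttr* made up nearly all of the E14 sum of the 8 choroid plexus and ependymal markers, which was 7.31 and 6.43 FPKM at E11 and 124 and 91.1 FPKM at E14. The other markers of the list were mixed. *Clic6*, with 0.337, 0.143, 0.412 and 0.274 FPKM, was higher at E14 and lower in *Stat3* cKO at E14, as *Ttr* was, and *Folr1* had 1.27, 1.32, 1.57 and 0.847 FPKM. *Aqp1* had 2.55, 1.66, 0.937 and 0.791 FPKM, *Foxj1* had 2.35, 2.498, 3.02 and 6.55 FPKM, and *Kcnj13* had 0.459, 0.426, 0.189 and 0.406 FPKM. *Ccdc153* and *Tmem212* were at 0 in both E14 libraries. The part of endothelial or choroid plexus cells in the level of *Slco1c1* was not tested.

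*Aldoc*, the brain isoform of the glycolytic enzyme aldolase (chromosome 11, 78137699 to 78140262), had 2.69 (CTL) and 2.93 FPKM (*Stat3* cKO) at E11, and 193 and 235 FPKM at E14. It showed the widest step between stages of the 10 markers, 71.9-fold in CTL and 80.1-fold in *Stat3* cKO, and a genotype ratio of 1.22 at E14 (1.20 to 1.24). *Clu*, the secreted chaperone clusterin (chromosome 14, 66587319 to 66600382), had 2.17, 3.38, 5.34 and 6.50 FPKM. Its E14 level was 2.46 times the E11 level in CTL and 1.92 times in *Stat3* cKO. The genotype ratio of *Clu* was 1.56 at E11 (1.28 to 1.91) and 1.22 at E14 (1.07 to 1.39).

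*Gja1* and *Slc1a2* went against the other markers between stages. *Gja1*, the gap junction protein connexin 43 (chromosome 10, 56097105 to 56110225), had 138 (CTL) and 174 FPKM (*Stat3* cKO) at E11, and 13.1 and 15.7 FPKM at E14. It was the highest of the 10 markers in both E11 libraries and was 10.5-fold lower at E14 in CTL and 11.1-fold lower in *Stat3* cKO. *Slc1a2*, the glutamate transporter GLT-1 (chromosome 2, 102498839 to 102630941), had 9.73, 8.73, 4.42 and 5.07 FPKM, and its E14 level was 0.454 times the E11 level in CTL and 0.581 times in *Stat3* cKO. Their genotype ratios at E14 were 1.20 (1.13 to 1.27) and 1.15 (1.08 to 1.22). *Gja1* is also read in fibroblasts and other mesenchymal cells. The 8 mural and mesenchymal markers summed to 1286 (CTL) and 1137 FPKM (*Stat3* cKO) at E11, and 16.8 and 12.2 FPKM at E14. Among them *Col3a1*, a fibrillar collagen, had 674, 586, 7.64 and 4.29 FPKM. The part of mesenchymal cells in the level of *Gja1* was not tested. *Gjb6*, the partner connexin 30, which was picked after its values were seen, had 30.7, 18.5, 0.1195 and 0.144 FPKM. Among the 12 genes of its list of astrocyte transport and channel genes that averaged 1 FPKM or more it was the exception, since the other 11 were higher at E14 in both genotypes.

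**Figure D2:**
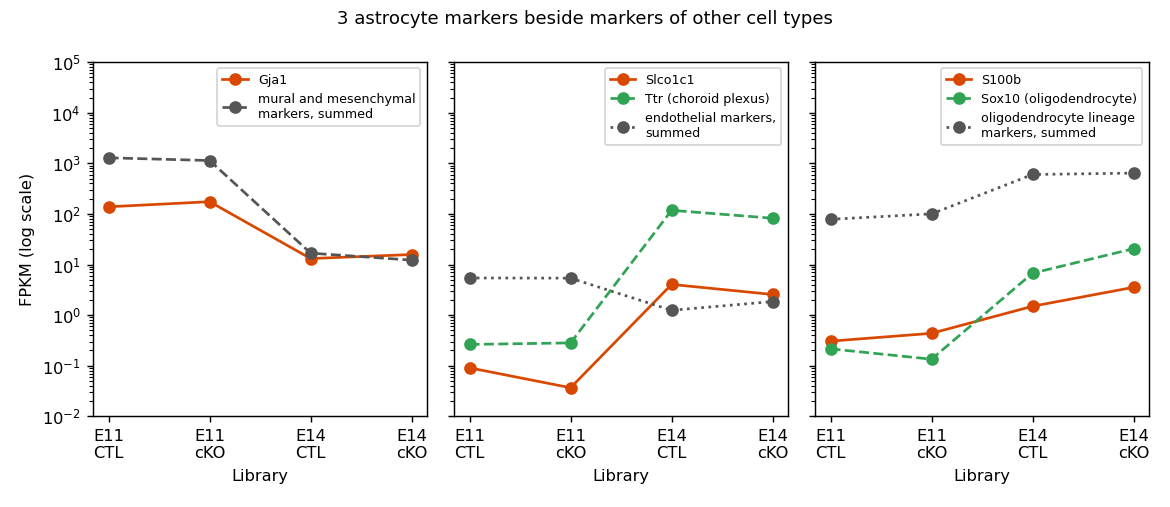
FPKM (log scale) in the 4 libraries of *Gja1*, *Slco1c1* and *S100b*, each beside markers of another cell type that may read the same gene, with lines joining the values of 1 gene or summed list. The mesenchymal sum and *Gja1* are both high at E11, *Ttr* and *Slco1c1* are both high at E14, and *Sox10* and *S100b* are both highest in E14 *Stat3* cKO, where *Olig1* and *Olig2*, the main part of the oligodendrocyte sum, are lower than in E14 CTL.

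At E14, 3 of the 9 markers that averaged 1 FPKM or more had a genotype ratio of at least 2 and 0 were lower by that margin. *S100b*, among the 3, passed the minimum only through E14 *Stat3* cKO (3.54 FPKM), so its call was in part set by it. With a minimum of 5 FPKM, 1 of 5 markers was at least 2-fold higher, and at a 3-fold threshold 0 of the 9 were higher. Over all genes, 1.85% were higher and 1.69% lower by that margin. In all, 8 of the 9 were above CTL, beside 39.9% of all genes, and their median log2 ratio was 0.29 against -0.079. At E11, 0 markers were at least 2-fold higher (0.209% of all genes) and 1, *Slco1c1*, was lower (1.12%). *Slco1c1* passed the minimum only through its E14 values, and its E11 call, which rests on about 14 and 4 fragments, was lost with a pseudocount of 0.1 or 1, a minimum of 5 FPKM or a 3-fold threshold. The median log2 ratio at E11 was 0.089 for the markers and 0.059 for all genes, and 5 of the 9 were above CTL, beside 61.8% of all genes. With so few genes and single libraries, these counts describe the markers and are not a test.

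**Figure D3:**
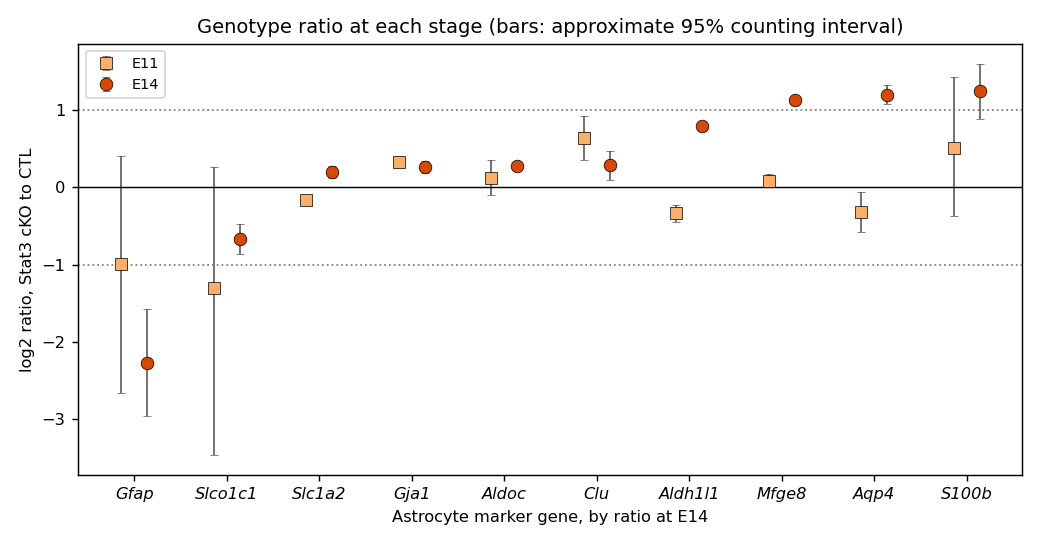
Log2 genotype ratio (*Stat3* cKO over CTL) of the 10 astrocyte markers at E11 (squares) and E14 (circles), 1 ratio of 2 libraries per point, with bars for the approximate 95% counting interval, which is not a spread between replicates, and dotted lines at a 2-fold difference. *Gfap* and *Slco1c1* lie below 0 at both stages, and the wide E11 bars of *Gfap*, *Slco1c1* and *S100b* show how few fragments they rest on.

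From E11 to E14 in CTL, 7 of the 9 markers were at least 2-fold higher (14.6% of all genes) and 2 were lower (12.5%). In *Stat3* cKO, 6 were at least 2-fold higher (10.1%) and 1 was lower (11.7%). *Slco1c1* and *S100b* were under 1 FPKM in both E11 libraries and passed the minimum only through E14, so that their place among the higher genes was in part set by it. With a minimum of 5 FPKM, 3 of 5 markers were higher in each genotype. The median log2 ratio of the markers was 2.29 in CTL and 3.02 in *Stat3* cKO, beside 0.21 and 0.058 for all genes. Both medians are the ratios of *S100b*, and with a pseudocount of 1 the medians were 1.01 and 1.78. Markers of other cell types moved between the stages too. Of 9 oligodendrocyte lineage markers, 7 were at least 2-fold higher in each genotype (medians 3.11 and 3.25), and all 6 mural and mesenchymal markers that averaged 1 FPKM or more were lower (medians -6.46 and -6.92). Their part in the stage ratios of the astrocyte markers was not tested. *Aldoc* had the highest log2 ratios, 6.17 and 6.32, and *Gja1* lay at the other end with -3.40 and -3.47. The stage ratios in CTL and in *Stat3* cKO follow from the same 4 values as the genotype ratios and are not separate evidence.

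**Figure D4:**
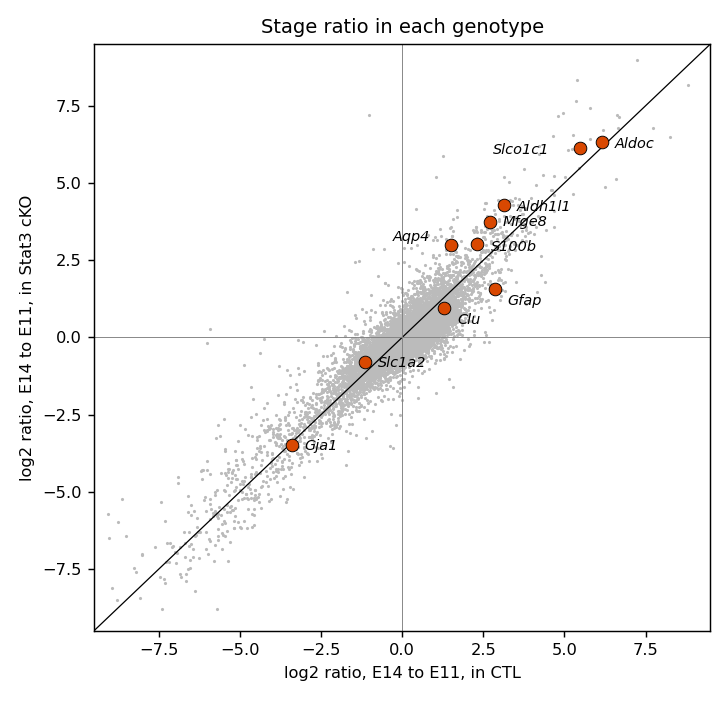
Log2 ratio of E14 to E11 in CTL (x axis) and in *Stat3* cKO (y axis) for the 10 astrocyte markers (large points) and all genes that averaged 1 FPKM or more (grey), with the line of equal ratios. *Gfap* (2.86 in CTL, 1.58 in *Stat3* cKO) lies farthest below the line, with *Clu* and *Gja1* nearer to it, and the other 7 markers lie above it, of which *Slco1c1* would lie below it with a pseudocount of 0.1 or 1.

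FPKM is a level per transcript length, so the markers can also be ordered within a library. In E11 CTL the order of levels was *Gja1*, *Mfge8*, *Slc1a2*, *Aldh1l1*, *Aldoc*, *Clu*, *Aqp4*, *S100b*, *Gfap* and *Slco1c1*. E11 *Stat3* cKO had the same order but for *Clu* ahead of *Aldoc*. In E14 CTL the order was *Aldoc*, *Mfge8*, *Aldh1l1*, *Gja1*, *Clu*, *Slc1a2*, *Slco1c1*, *Aqp4*, *S100b* and *Gfap*. In E14 *Stat3* cKO, *Mfge8* passed *Aldoc*, *Aqp4* moved ahead of *Clu*, *Slc1a2* and *Slco1c1*, and *S100b* ahead of *Slco1c1*. With 1 library per group, whether neighbours in these orders differ beyond their spread cannot be said.

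The profile of each marker over the 4 libraries was compared by the Euclidean distance of centred log2 FPKM. The closest pairs of markers were *Aldh1l1* with *Mfge8* (0.623), *Mfge8* with *S100b* (0.640) and *Aqp4* with *S100b* (0.716). Among 9184 genes that averaged 5 FPKM or more and had no 0, the nearest to *Aldh1l1* were *Sox8* (0.211), *Plekhb1* (0.350) and *Cmtm5* (0.384). *Sox8*, a transcription factor of glial precursors, had 2.52, 2.17, 26.3 and 46.3 FPKM. The nearest to *Mfge8* were *Cnp* (0.209), *Rap1gap* (0.219) and *Asrgl1* (0.275). *Cnp*, an enzyme of oligodendrocyte myelin, had 3.99, 5.01, 28.2 and 68.0 FPKM. The nearest to *Slco1c1* were *Gabrg1* (0.406), *Sla* (0.764) and *Slc15a2* (0.877), and *Gabrg1*, a subunit of the GABA-A receptor, had 0.302, 0.147, 16.7 and 12.7 FPKM. Each distance rests on 4 values that share libraries.

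Other astrocyte genes were read from 4 further lists of transport and channel, metabolic, secreted and surface proteins. Of their 50 genes, 42 averaged 1 FPKM or more. At E14, 12 of them exceeded CTL at least 2-fold in *Stat3* cKO (1.85% of all genes) and 2 were below it by that margin (1.69%), with 28 above CTL (39.9% of all genes) and a median log2 ratio of 0.42. At E11, 0 were higher (0.209%) and 4 lower (1.12%) by that margin. At that stage 18 were above CTL (61.8% of all genes), with a median of -0.10 beside 0.059 for all genes. From E11 to E14, 25 of the 42 were at least 2-fold higher (14.6% of all genes) and 3 lower (12.5%) in CTL, with a median log2 ratio of 1.32. In *Stat3* cKO 30 were higher (10.1%) and 2 lower (11.7%), with a median of 2.05. Genes low at E11 that passed the minimum through E14 are among these counts. By list, the E14 medians were 0.42 for transport and channels, 0.14 for metabolism, 0.51 for secreted proteins and 0.68 for surface receptors. *Ednrb*, the endothelin B receptor, had 56.4 (CTL) and 53.5 FPKM (*Stat3* cKO) at E11, and 162 and 521 FPKM at E14. *Apoe*, the lipid carrier, had 124, 93.8, 92.2 and 304 FPKM. Both had their highest value in E14 *Stat3* cKO, as *Mfge8* did, but they were named by a rule that picks wide E14 ratios. Of the 42 genes, 14 were below CTL at E14. The 2 that were lower by at least 2-fold were *Dio2* (0.337 times CTL) and *Cd44* (0.384 times CTL). *Slc1a3*, the glutamate transporter GLAST of radial glia and astrocytes, had 112, 85.5, 206 and 207 FPKM. Relative to *Slc1a3*, *Gfap* was 4.87-fold higher in E14 CTL than in E14 *Stat3* cKO and 1.51-fold higher in the E11 pair.

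The filament partners of GFAP differed less than *Gfap* between the E14 libraries. *Vim*, the vimentin of radial glia, had 582, 609, 1556 and 1259 FPKM, and *Nes*, the nestin of progenitors, had 41.2, 63.4, 109 and 111 FPKM. Of 15 genes that are read in reactive astrocytes, 9 averaged 1 FPKM or more. At E14, 1 of the 9 was at least 2-fold lower in *Stat3* cKO (1.69% of all genes) and 0 were higher (1.85%). It was *Timp1*, with 2.87 (CTL) and 0.787 FPKM (*Stat3* cKO). In all, 8 were below CTL and 1 above (39.9% of all genes were above), with a median log2 ratio of -0.39. That median is the ratio of *S1pr3*, with 18.0, 20.3, 0.715 and 0.547 FPKM. Several of the 9, *S1pr3* among them, passed the minimum through E11 and were under 1 FPKM in both E14 libraries. In that list *Fkbp5*, a chaperone of steroid receptors, had 7.67, 9.92, 12.2 and 7.47 FPKM. *Lcn2* was at 0 in E14 CTL.

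Markers of other cell types moved beside the astrocyte markers at E14. Of the 10 oligodendrocyte lineage markers, 9 averaged 1 FPKM or more, and 5 of these exceeded CTL at least 2-fold in *Stat3* cKO (1.85% of all genes). The median log2 ratio of the list was 1.26. Their sum was 78.3 (CTL) and 100 FPKM (*Stat3* cKO) at E11, and 602 and 640 FPKM at E14. *Sox10*, a transcription factor read in the lineage, had 0.215, 0.134, 6.74 and 20.6 FPKM, so *Sox10* and *S100b* were both highest in E14 *Stat3* cKO. The lineage factors *Olig1* and *Olig2*, the most abundant of the list, were instead lower in *Stat3* cKO at E14. *Olig1* had 1.64, 2.85, 345 and 311 FPKM, and *Olig2* had 11.9, 15.5, 168 and 134 FPKM. The part of oligodendrocyte precursors in the levels of *S100b* and the other markers was not tested. Of the 10 neuron markers, 1 was above CTL and 9 were below it at E14 (39.9% of all genes were above), with a median of -0.32 and 0 beyond 2-fold. The 10 radial glia markers had a median of 0.25, with 1 at least 2-fold higher (1.85% of all genes), and the 6 markers of intermediate progenitors had a median of 0.26 and 0 beyond 2-fold. Microglia markers summed to between 0.807 and 11.8 FPKM, with *Aif1* at 0 in E14 CTL.

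**Figure D5:**
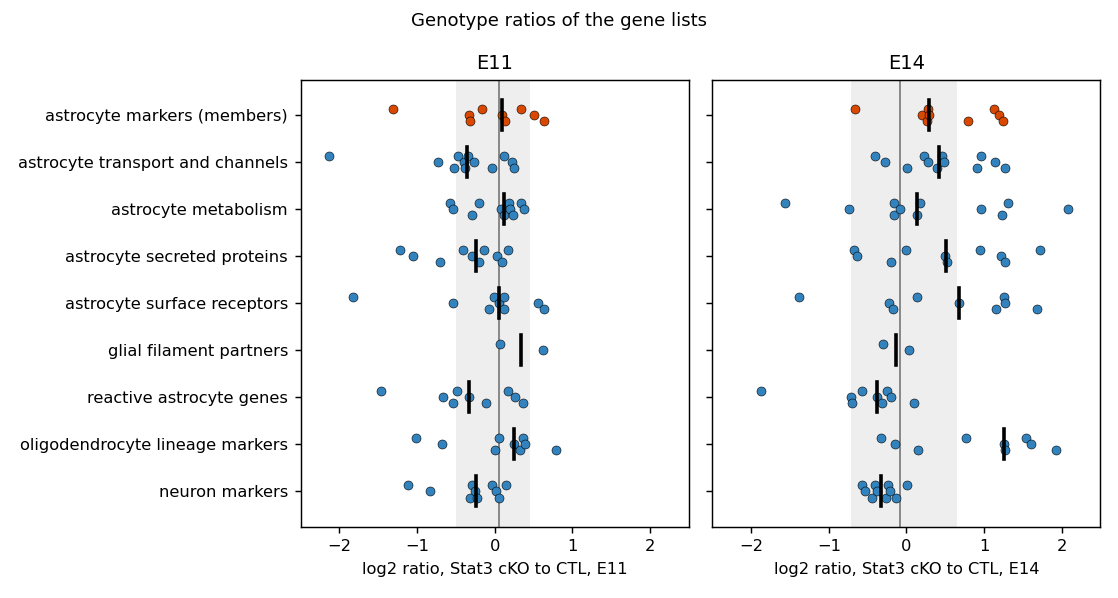
Log2 genotype ratio (*Stat3* cKO over CTL) at E11 and at E14 for the genes of each list that averaged 1 FPKM or more (points), with the list median (black bar), and the median (line) and central 90% of all genes (grey band). At E14 the medians of the astrocyte markers (0.29), the 4 other astrocyte lists (0.14 to 0.68) and the oligodendrocyte lineage markers (1.26) lie above that of all genes (-0.079). Those of neuron markers (-0.32), reactive astrocyte genes (-0.39) and filament partners (-0.14) lie below it. Radial glia markers (0.25) and intermediate progenitor markers (0.26), which are not drawn, were also above it.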

How the data were processed

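The deposited FPKM values, 1 per gene and library, were made by the authors with FastQC, TopHat and Cufflinks. The submitters' processing notes name Bowtie 0.12.2 and the mouse builds mm8 and mm9 without their roles, so the coordinates of genes are given as listed. FPKM corrects for transcript length and depth, and fragment numbers here are approximate, since they were inferred from the spacing of low values of genes with 1 transcript of 1500 to 5000 bases and the longest GENCODE M21 transcript of each marker. The spacing was loose, with 68.6% (E11 CTL) to 75.3% (E14 *Stat3* cKO) of the low values within 0.25 of a whole number of fragments. The counting intervals rest on the same estimate. Summed FPKM differed between libraries, from 806587 to 1461770.

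Plain ratios without a pseudocount were computed in Python 3.11.15 (pandas 2.3.3, numpy 2.4.6; intervals with scipy 1.17.1; plots with matplotlib 3.10.9). A gene at 0 in either library was given no ratio. The 2-fold calls and the fragment estimate were tried on simulated data that held no spread between cultures, so that spread remains unassessed. The 10 members and all 14 other gene lists were chosen with earlier results of these data known. Named were all members, *Stat3*, from each list genes among the 2 highest or the 2 with the widest E14 ratio at a mean of at least 5 FPKM, and the 3 nearest profiles of 3 markers. *Ddx3y*, *Gjb6*, *Cldn5*, *Dio2*, *Cd44*, *Timp1*, the choroid plexus and ependymal markers other than *Ttr* and the genes given as at 0 fall outside this rule. They were chosen after their values were seen. Alternatives were pseudocounts of 0.1 and 1, other minimum means, thresholds of 1.5 and 3, and upper-quartile or median scaling.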

Additional observations from a re-analysis of the deposited data

Results flagged for a closer look

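For 3 of the 9 astrocyte markers that averaged 1 FPKM or more, *Stat3* cKO lay on opposite sides of CTL at the 2 stages. The log2 ratio at E14 exceeded that at E11 by 1.51 for *Aqp4* (1.20 against -0.31), by 1.13 for *Aldh1l1* (0.80 against -0.33) and by 0.36 for *Slc1a2* (0.20 against -0.16). With 1 library per group the difference was not tested. Opposite signs were common in these libraries, at 55.4% of all genes and 52.4% of the 42 genes of the other astrocyte lists.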

How the results depend on the processing

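Of 252 values recomputed under other settings, 219 were unchanged within the limits used, 32 moved and 1 turned its direction. At E14, the number of markers at least 2-fold higher in *Stat3* cKO, 3 as reported, was 1 with a minimum mean of 5 FPKM and 0 at a 3-fold threshold, and the number lower, 0 as reported, was 1 with no minimum and 1 at 1.5-fold. At E11, the median log2 ratio was -0.033 with no minimum, which lets *Gfap* in, the number higher was 1 at 1.5-fold, and the number lower was 0 with a pseudocount of 0.1 or 1, a minimum of 5 FPKM or a 3-fold threshold. Between stages in CTL, the median was 1.01 with a pseudocount of 1, 3 markers were higher with a minimum of 5 FPKM, and 1 was lower with a pseudocount of 1 or at 3-fold. In *Stat3* cKO, the median was 1.78 with a pseudocount of 1 and 3.74 with a minimum of 5 FPKM, 3 markers were higher with that minimum, and 2 were lower at 1.5-fold. These settings admit or remove genes or shrink low ratios by their construction. Of 160 values of single markers, 15 moved, all of them of *Gfap*, *Slco1c1*, *S100b* or *Aqp4* and all with a pseudocount. With a pseudocount of 1, the log2 genotype ratio of *Gfap* was -0.68 at E14 and -0.081 at E11, *Slco1c1* had -0.073 at E11, and the stage ratios in CTL and *Stat3* cKO were 0.76 and 0.16 for *Gfap*, 2.21 and 1.78 for *Slco1c1* and 0.93 and 1.66 for *S100b*. That of *Aqp4* in *Stat3* cKO was 2.19. Upper-quartile scaling moved the log2 ratios of all genes by 0.15 at E14, -0.069 at E11, -0.37 between stages in CTL and -0.15 in *Stat3* cKO, and no member changed sign under it or under median scaling. No paired analysis was possible because each group had 1 library and the result comes from no test. The spread between cultures cannot be estimated from these libraries, and *Gfap*, *Slco1c1* and *S100b* at E11 rest on few fragments.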
